A study of Mus musculus with 78 samples.

Results

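The genes of class I antigen presentation were followed as 8 members: H2-D1, H2-K1, H2-T23, B2m, Tap1, Tapbp, Psmb8 and Psmb9. They were chosen by name, and every probe set annotated to them was taken, 29 in all, of which 24 list 1 gene and 5 list several. The choice was made with values of these arrays in view, because the levels of the H2 genes differed between groups of one age. The differences of the H2 genes between groups are therefore given as a description with no test. The whole series holds 18194 genes with a probe set of their own.

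Brain RNA was measured on 78 Affymetrix arrays, 3 biological replicates in each of 26 groups, at embryonic day 14 (E14, 24 arrays), at birth (P0, 30 arrays) and at postnatal day 14 (P14, 24 arrays). Values are log2 RMA values, so 1 unit is a doubling, and the number of arrays limits the precision. At E14 the mutants were Dcx ko/Y, Lis1 ko/+, Lis1 ko/cko, Ndel1 ko/+, Ndel1 ko/cko and 14-3-3 ko/ko, set against wild types of mixed background A and mixed background B. At P0 they were Dcx ko/Y, Lis1 ko/+, Lis1 ko/cko, Ndel1 ko/+ and Ndel1 ko/cko, set against the same mixed wild types, and Ndel1 ko/+ and 14-3-3 ko/ko in an inbred background (titled WT129s6 for the wild type), set against an inbred wild type. At P14 they were Lis1 ko/+, Lis1 ko/cko, Ndel1 ko/+, Ndel1 ko/cko and a further Ndel1 ko/+ group labelled mix, beside wild types of mixed A, mixed B and the inbred background. Here ko is a null and cko a conditional allele, Lis1 is the gene Pafah1b1, the 14-3-3 mutants lack the epsilon form encoded by Ywhae, and the labels give no Cre driver. The labels do not say which mixed wild type goes with which mutant, so a mutant was called only where it differed from both.

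Some arrays went against their label. The arrays labelled 14-3-3 ko/ko at E14 held Ywhae at 12.68, 12.92 and 9.97, so replicates 1 and 2 kept it near the wild-type level. Dcx was between 4.40 and 4.87 in Dcx ko/Y at E14 and between 4.16 and 4.52 at P0, but replicate 2 at P0 held Xist, which is transcribed from an inactive X chromosome, at 11.27 against 4.62 and 4.91 in the other replicates. Ndel1 averaged 9.82 in the Ndel1 ko/cko arrays of E14, against 9.90 (mixed A) and 9.91 (mixed B), and was less reduced there than in Ndel1 ko/+ (9.45). It was no lower than wild type in the arrays labelled Ndel1 ko/+ inbred at P0 and Ndel1 ko/+ mix at P14. Xist was at 11.91 to 12.02 in the Ndel1 ko/cko arrays of E14, against 4.56 to 4.65 in mixed A and 4.50 to 11.99 in mixed B. At P0 Pafah1b1 averaged 10.01 in Lis1 ko/+ brains and 10.08 in the ko/cko arrays, below mixed A (10.51) but not below mixed B (9.95). The brain label was checked by a list of 7 neuronal genes, whose mean lay between 10.9 and 11.7 in all mixed wild-type groups.

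Class I molecules display peptides from inside the cell to cytotoxic T cells and natural killer cells. Their heavy chains are encoded by H2 genes that differ strongly between mouse strains, and each needs beta-2-microglobulin to reach the surface. Immunoproteasome subunits cut the peptides, the TAP transporter carries them into the endoplasmic reticulum, and tapasin holds an empty class I molecule at the transporter. In the brain, H2-D1 and H2-K1 transcripts are known from neurons as well as from microglia and vessels, and class I molecules have been studied there for their part in the pruning of synapses. Interferons raise the whole set in most tissues, through factors that bind the promoters of these genes.

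The stretches upstream of the start sites are shown because H2-D1 and H2-K1 varied together, because B2m followed them less closely, and because Tap1 and Psmb9 start from opposite ends of one stretch. They are from RefSeq on GRCm38.p6, which is the sequence of a reference strain and not of the strains measured here. H2-D1 lies on the plus strand at chr17:35262844-35263093, H2-K1 on the minus strand at chr17:34000348-34000597 for its first start site, and B2m on the plus strand at chr2:122147437-122147686, each as the 250 bases before the start. The 225 bases at chr17:34187331-34187555, on the plus strand, lie between the starts of Psmb9 and Tap1. Capitals mark the letters GGGNNTTCC (a kappa B type motif), GAAANNGAA (an interferon response type motif) and CCAAT, searched on both strands.
H2-D1: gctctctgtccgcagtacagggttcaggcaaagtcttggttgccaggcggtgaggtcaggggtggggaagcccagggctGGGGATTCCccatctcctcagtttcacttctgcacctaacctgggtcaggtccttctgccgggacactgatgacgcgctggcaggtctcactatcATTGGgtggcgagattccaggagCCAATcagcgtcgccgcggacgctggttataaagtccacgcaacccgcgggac
H2-K1: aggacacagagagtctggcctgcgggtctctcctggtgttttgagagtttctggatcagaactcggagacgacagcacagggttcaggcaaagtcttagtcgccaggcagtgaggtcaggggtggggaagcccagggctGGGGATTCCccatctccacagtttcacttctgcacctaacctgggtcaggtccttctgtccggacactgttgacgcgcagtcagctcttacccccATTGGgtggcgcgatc
B2m: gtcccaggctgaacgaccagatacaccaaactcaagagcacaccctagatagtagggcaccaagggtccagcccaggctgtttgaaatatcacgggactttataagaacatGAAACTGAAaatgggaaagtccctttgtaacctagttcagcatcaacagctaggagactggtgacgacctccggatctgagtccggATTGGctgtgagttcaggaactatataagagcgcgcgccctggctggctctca
Psmb9 to Tap1: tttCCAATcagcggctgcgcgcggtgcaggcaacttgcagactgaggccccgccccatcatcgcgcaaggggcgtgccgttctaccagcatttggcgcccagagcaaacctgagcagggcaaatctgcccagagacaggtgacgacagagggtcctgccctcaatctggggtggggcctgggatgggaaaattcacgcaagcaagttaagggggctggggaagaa

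The kappa B type letters were found upstream of 2 of the 8 members, H2-D1 and H2-K1, and in 4.88% of all 27025 promoters of this length. Both genes hold the same ggggattcc, with its first letter 95 bases before the first letter of a reversed CCAAT. The interferon response type letters were found in B2m, from 139 to 131 bases before its start, and on the other strand in H2-T23, and in 7.16% of all promoters. CCAAT was found upstream of 7 of the 8 members, all but Psmb8, and in 34.5% of all promoters. The stretch between Psmb9 and Tap1 holds 1 such site, which is counted for both genes. The motifs did not overlap one another in the stretches shown. Sites of another length or letter order were not searched, so a missing match does not show that a gene lacks such a site. The split of H2-D1 and H2-K1 from B2m and H2-T23 therefore holds for these letters only.

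H2-D1, a classical heavy chain, was read by 1425545_x_at, whose values ran from 7.75 to 9.68. At E14 the arrays of Dcx ko/Y held 9.01, 8.97 and 9.25 and those of Lis1 ko/+ 8.14, 8.85 and 9.01, against 8.001, 7.75 and 8.01 in mixed A brains and 7.82, 7.89 and 7.93 in mixed B. Every Dcx ko/Y and Lis1 ko/+ array thus lay above all 6 wild-type arrays, and Dcx ko/Y averaged 9.08 ± 0.15 against 7.92 ± 0.15 in mixed A brains and 7.88 ± 0.06 in mixed B (SD, n = 3 each). The arrays of Ndel1 ko/+ (8.27, 8.18 and 8.32) and of Ndel1 ko/cko (8.18, 8.05 and 8.15) also lay above both wild types, by less. Those of Lis1 ko/cko (7.94, 8.46 and 8.28) overlapped mixed A only, and those of 14-3-3 ko/ko (8.08, 7.85 and 8.07) overlapped both.

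At P0 the order of groups for H2-D1 was another. Lis1 ko/+ held 9.68, 8.9995 and 9.0013, Lis1 ko/cko 8.01, 9.11 and 9.07, and Dcx ko/Y 8.67, 8.29 and 9.26, against 7.97, 8.85 and 8.90 in mixed A brains and 8.43, 8.33 and 8.37 in mixed B. Only Lis1 ko/+ stood above both wild types in all 3 arrays, and 1 of 5 mutant groups at P0 did so, against 4 of 6 at E14. The share of all genes that separate in this way is not given, here or for the counts below, so these counts are description only. Within Lis1 ko/cko and within mixed A, replicate 1 lay below both of its group mates. In the Dcx ko/Y group the array with Xist held the lowest value. Ndel1 ko/cko averaged 8.01 and was the lowest of the 10 groups. In the inbred background the values were 8.18, 8.13 and 8.33 in Ndel1 ko/+ brains and 8.30, 8.43 and 8.40 in 14-3-3 ko/ko, against 8.01, 8.36 and 8.18 in the wild type, and the ranges overlapped.

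At P14 the groups were tighter. H2-D1 held 9.26, 9.27 and 9.06 in Lis1 ko/cko and 8.64, 8.61 and 8.66 in Lis1 ko/+, against 8.69, 8.72 and 8.64 in mixed A brains and 8.35, 8.39 and 8.42 in mixed B. Lis1 ko/cko averaged 9.20 ± 0.12, against 8.68 ± 0.04 in mixed A brains and 8.39 ± 0.03 in mixed B (SD, n = 3 each), and was the 1 mutant group of 5 that lay above both. The mixed wild types did not overlap each other, unlike at E14. The group means spanned 1.20 units at E14, 1.22 at P0 and 0.91 at P14. In the order of group means, neighbours had overlapping arrays in 7 of 7 pairs at E14, 9 of 9 at P0 and 5 of 7 at P14, so the order is not resolved step by step.

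**Figure D1:**
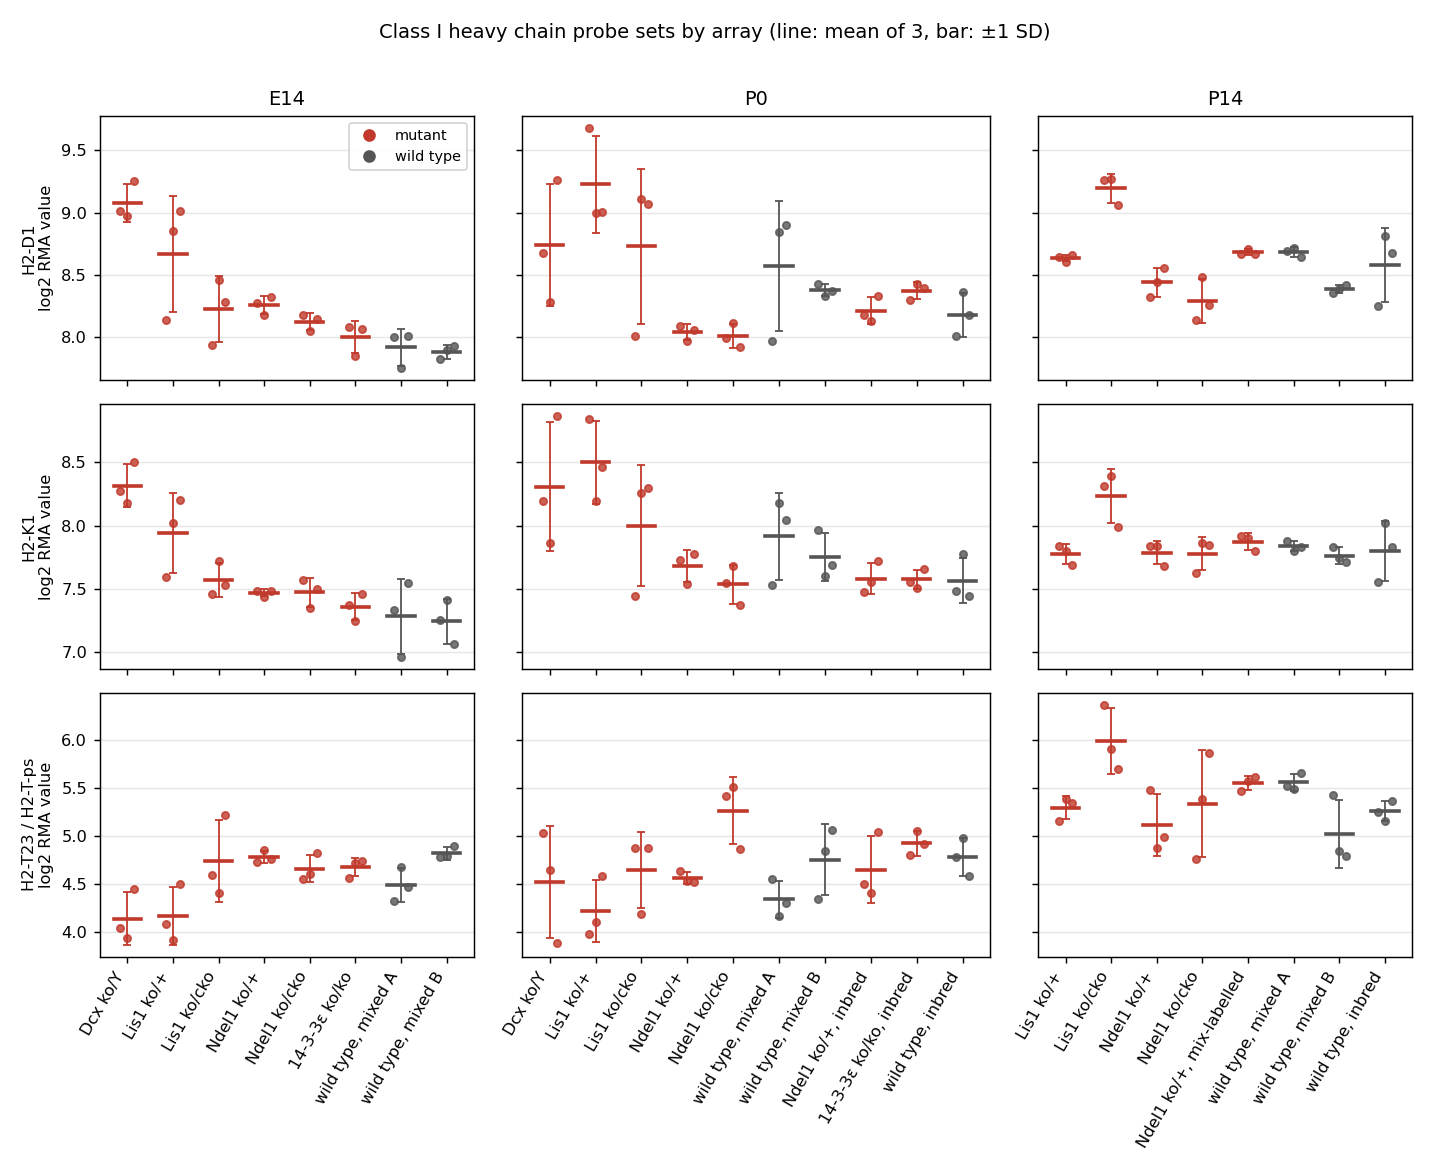
Log2 RMA values of H2-D1, H2-K1 and the probe set shared by H2-T23 and H2-T-ps in each array, by group and age, with mutants and wild types in 2 colours, a line for the mean of 3 arrays and a bar for 1 SD. Dcx ko/Y and Lis1 ko/+ at E14, Lis1 ko/+ at P0 and Lis1 ko/cko at P14 lie above both mixed wild types for H2-D1 and H2-K1.

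H2-K1, the other classical heavy chain measured here, varied with H2-D1. At E14 its arrays, read by 1451931_x_at, held 8.27, 8.17 and 8.50 in Dcx ko/Y and 7.59, 8.02 and 8.20 in Lis1 ko/+, against 7.33, 6.97 and 7.55 in mixed A brains and 7.25, 7.42 and 7.06 in mixed B. These 2 groups of 6 lay above both wild types, and Dcx ko/Y averaged 8.32 ± 0.17, against 7.28 ± 0.30 in mixed A brains and 7.24 ± 0.18 in mixed B. At P0 the arrays of Lis1 ko/+ held 8.84, 8.19 and 8.46, against 7.53, 8.18 and 8.04 in mixed A brains and 7.96, 7.60 and 7.69 in mixed B, and 1 of 5 groups stood above both. At P14 the arrays of Lis1 ko/cko held 8.31, 8.39 and 7.99, against 7.88, 7.80 and 7.83 in mixed A brains and 7.83, 7.75 and 7.71 in mixed B. Again this was the 1 group above both, and the spans of H2-K1 group means were 1.07, 0.96 and 0.47 units at E14, P0 and P14.

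The remaining groups of H2-K1 were closer together at E14 and P14 than at P0. At E14 Lis1 ko/cko averaged 7.57 ± 0.13, Ndel1 ko/+ 7.47 ± 0.03, Ndel1 ko/cko 7.47 ± 0.11 and 14-3-3 ko/ko 7.36 ± 0.11 (SD, n = 3 each), and all of them overlapped at least one mixed wild type. At P0 H2-K1 held 8.20, 7.86 and 8.86 in Dcx ko/Y and 7.45, 8.26 and 8.29 in Lis1 ko/cko, and each group had 2 arrays above the range of mixed A. Replicate 1 of Lis1 ko/cko and of mixed A, low in H2-D1 at P0, was low in H2-K1 too. Ndel1 ko/cko was the lowest group, at 7.54 ± 0.15, and in the inbred background Ndel1 ko/+ and 14-3-3 ko/ko averaged 7.58 each, against 7.57 in the wild type. At P14 the means of all groups but Lis1 ko/cko lay between 7.76 and 7.87. The inbred wild type at P14 held 7.55, 8.02 and 7.83, so its highest array lay within the range of Lis1 ko/cko.

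H2-T23 encodes the heavy chain of Qa-1, a nonclassical molecule seen by natural killer cells. It has no probe set of its own, since both list H2-T-ps as well, so the brighter of them, 1449556_at, reports either gene. Its values ran the other way from H2-D1 in some groups. At E14 it held 4.04, 3.93 and 4.45 in Dcx ko/Y, against 4.32, 4.67 and 4.46 in mixed A brains and 4.78, 4.79 and 4.89 in mixed B. At P14 it held 6.37, 5.90 and 5.70 in Lis1 ko/cko, against 5.52, 5.49 and 5.66 in mixed A brains and 5.43, 4.84 and 4.79 in mixed B, and Lis1 ko/cko was the 1 group above both. At P0 the H2-T23 probe set was highest in Ndel1 ko/cko, with 5.41, 5.51 and 4.86, and lowest in Lis1 ko/+, with 3.97, 4.10 and 4.58, against 4.55, 4.17 and 4.31 in mixed A brains and 4.34, 4.85 and 5.06 in mixed B brains. Both of these groups overlapped at least one wild type. Their places were turned round for H2-D1, where Lis1 ko/+ was the highest group at P0 and Ndel1 ko/cko the lowest. The P14 means of this probe set in the other mutants lay between 5.11 and 5.55. The E14 values, and all P0 group means but that of Ndel1 ko/cko (5.259), lie under 5.253. This is the median of all values on the arrays, which served as the filter on dim genes. At P14 mixed B (5.02) and Ndel1 ko/+ (5.11) lie under it too. The order of groups at E14 and P0 is thus read from dim values.

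Over the arrays of one age, H2-D1 and H2-K1 had a Pearson correlation of 0.963 at E14 (n = 24), 0.93 at P0 (n = 30) and 0.833 at P14 (n = 24), with Spearman values of 0.879, 0.818 and 0.643. Without the 2 arrays farthest in H2-D1 the Pearson values were 0.938, 0.898 and 0.642. Over deviations from the group means, which leave out all differences between groups, the correlation was 0.88 (n = 78), so the pair moved together between replicates too. The 2 values share an array and a hybridisation, and both probe sets carry the suffix of designs whose probes can match related sequences. At P0 the 2 arrays highest in H2-D1 were replicate 1 of Lis1 ko/+ (9.68) and replicate 3 of Dcx ko/Y (9.26). They were also the lowest in Vps52, a gene of the same chromosome, at 4.73 and 5.92. At E14 the Dcx ko/Y arrays held Vps52 at 6.54 to 6.69, beside replicate 3 of mixed A at 6.71, whose H2-D1 was 8.01. H2-D1 and the H2-T23 probe set had correlations of −0.554 at E14, −0.575 at P0 and 0.636 at P14. Without the 2 arrays farthest in H2-D1 these were −0.523, −0.398 and 0.389.

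**Figure D2:**
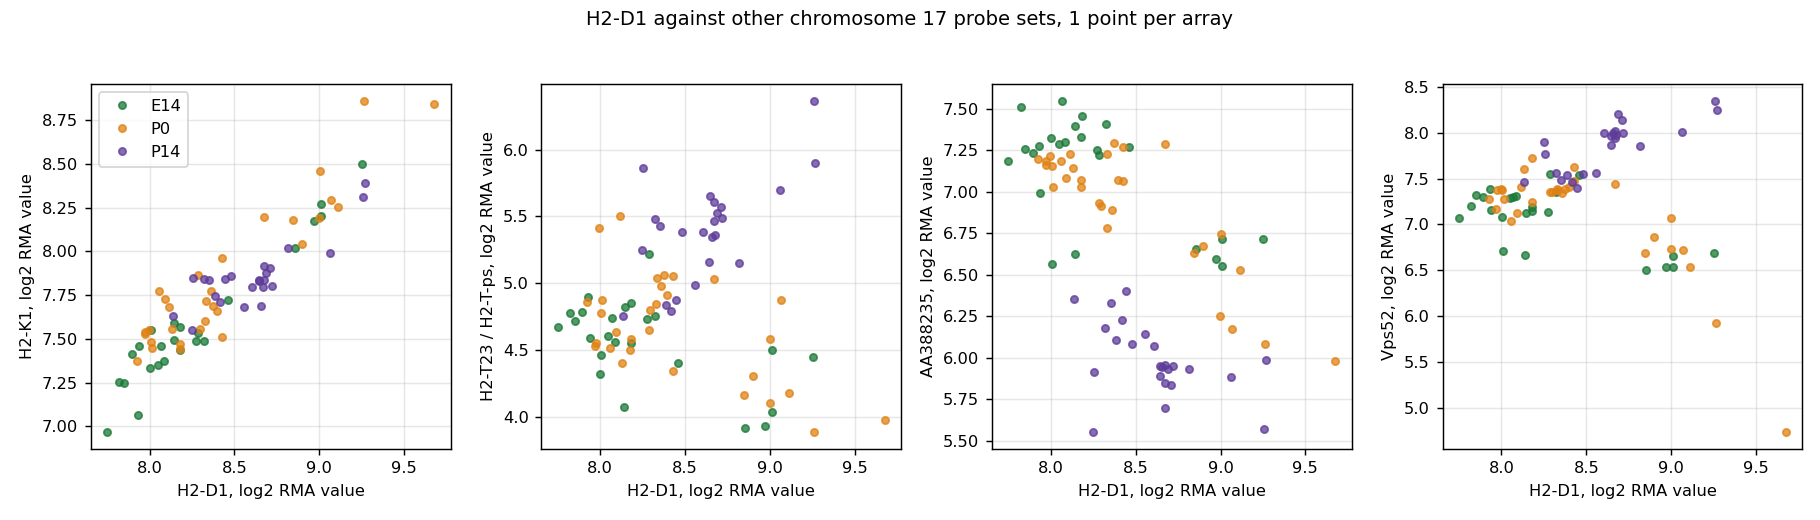
H2-D1 log2 RMA value of each array on the horizontal axis against the values of H2-K1, the H2-T23 and H2-T-ps probe set, AA388235 and Vps52 on the vertical axes, coloured by age. H2-K1 rises with H2-D1 at each age, with Pearson values of 0.963, 0.93 and 0.833.

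Genes were ranked by how closely their 26 group means, centred within each age, followed those of each member, among 13052 other genes. For H2-D1 they were H2-K1 (r = 0.943), Mxra7 (0.77) and Pgm1 (0.736), and for H2-K1 they were H2-D1, Mxra7 (0.726) and Pgm1 (0.693). The H2-T23 probe set was closest to Vps52 (0.809), Hs3st4 (0.76) and Myt1l (0.746). Those closest to Tapbp were Sh3glb2 (0.949), Dkk3 (0.942) and Ppp6r1 (0.941), and those closest to B2m were Ifitm3 (0.799), Fam149a (0.791) and Ostf1 (0.789). Tap1 was closest to Edn1 (0.816), Psmb8 to Nell2 (0.726) and Psmb9 to Mesp1 (0.632), so the other members of the pathway were not among the closest 3 of any member but H2-D1 and H2-K1. The points share arrays, and all 26 are means of 3.

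The annotated neighbours of H2-K1 on chromosome 17 included genes that ran against it. AA388235, the gene next to H2-K1 in GRCm38.p6, had r = −0.81 with H2-K1 over the 26 centred group means, and Vps52, a few genes away, −0.651 (over arrays −0.693 at E14 and −0.808 at P0, but 0.563 at P14), while Ring1 (0.022) and Rps18 (−0.002), in the same stretch, were near 0. AA388235 held 6.71, 6.59 and 6.72 in Dcx ko/Y at E14, against 7.33, 7.19 and 6.56 in mixed A brains and 7.51, 7.23 and 7.28 in mixed B. At P0 it held 5.98, 6.25 and 6.74 in Lis1 ko/+, against 7.16, 6.63 and 6.67 in mixed A and 7.07, 7.23 and 7.29 in mixed B. Replicate 3 of mixed A at E14 and replicates 2 and 3 of mixed A at P0 thus held AA388235 low. Of these arrays the P0 ones also held H2-D1 high, at 8.85 and 8.90. Vps52, a subunit of a complex that tethers vesicles at the Golgi, held 6.66, 6.54 and 6.69 in Dcx ko/Y at E14, against 7.08, 7.07 and 6.71 in mixed A brains and 7.20, 7.30 and 7.39 in mixed B. In Lis1 ko/+ at P0 it was at 4.73, 6.73 and 7.07, and replicate 1, with the lowest Vps52, was the array with the highest H2-D1 (9.68). The strain haplotype each array carries at this locus is not given by the labels, and its part in these values was not tested.

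The remaining probe sets of the heavy chains were compared with those above. Of the 11 probe sets of H2-D1 4 reached a group mean at the median value, of the 6 of H2-K1 4, and of the 2 of H2-T23 1. The second bright set of H2-D1, 1451784_x_at, followed the first with correlations of 0.998, 0.985 and 0.994 over the group means of E14, P0 and P14. Its group means spanned 1.09, 1.17 and 0.85 units. A further set, 1426324_at, averaged 4.997 over all arrays and spanned 0.62, 0.73 and 0.38. For H2-K1 the second set, 1425336_x_at, averaged 7.19 and spanned 0.96, 0.66 and 0.83. At E14 this H2-K1 set held 7.50, 7.57 and 7.70 in Dcx ko/Y, against 6.87, 6.28 and 6.96 in mixed A and 6.70, 6.60 and 6.60 in mixed B, without overlap, while Lis1 ko/+ (6.76, 7.47 and 7.51) overlapped mixed A. At P14 it averaged 8.29 ± 0.12 in Lis1 ko/cko and 8.12 ± 0.09 in Ndel1 ko/+ labelled mix, against 7.93 ± 0.13 in mixed A brains and 7.46 ± 0.11 in mixed B brains. The other single-gene sets of both genes averaged between 3.81 and 4.80, near the lower end of the scale.

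B2m encodes beta-2-microglobulin, the light chain of all these molecules, and was the brightest member, with values from 8.08 to 10.38. At E14 B2m did not separate Dcx ko/Y from the wild types, while both classical heavy chains did. It held 9.06, 9.28 and 9.16 in Dcx ko/Y, against 9.19, 9.002 and 8.38 in mixed A brains and 9.07, 9.04 and 8.96 in mixed B, and the ranges overlapped. Over arrays, H2-D1 and B2m had Pearson correlations of 0.318, 0.244 and 0.418 at E14, P0 and P14, with Spearman values of 0.577, 0.266 and 0.336. Without the 2 arrays farthest in H2-D1 the Pearson values were 0.366, 0.396 and 0.135.

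At P0 B2m ran from 8.70 to 9.48 over all 30 arrays, and the means of the mutants in mixed backgrounds lay between 8.86 and 9.09, against 9.27 ± 0.23 in mixed A brains and 8.92 ± 0.17 in mixed B brains. At P14 Lis1 ko/cko held 10.26, 10.28 and 9.85 and Ndel1 ko/cko 9.68, 9.97 and 10.18, while Lis1 ko/+ averaged 9.88 ± 0.05, Ndel1 ko/+ labelled mix 9.87 ± 0.10 and Ndel1 ko/+ 9.82 ± 0.09. The mixed wild types averaged 10.25 ± 0.19 (A) and 9.85 ± 0.17 (B), and the inbred one 9.67 ± 0.04 (SD, n = 3 each), so the wild types spanned the mutants. Neighbours in the order of B2m means overlapped in 7 of 7 pairs at E14, 9 of 9 at P0 and 6 of 7 at P14.

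B2m had 3 low arrays at E14. Replicate 1 of Lis1 ko/+ was at 8.08 beside 9.20 and 9.22, replicate 1 of Lis1 ko/cko at 8.34 beside 9.56 and 9.48, and replicate 3 of mixed A at 8.38. The same arrays were low in the mean of marker lists of other cell types. The microglia list had means of 5.54, 5.84 and 5.66 there, the meninges list 5.56, 6.36 and 6.31, and the choroid plexus list 4.56, 4.47 and 7.08. In the other arrays of those groups these means lay between 6.13 and 6.85, between 8.22 and 9.22, and between 7.54 and 8.39. Over deviations from the group means (n = 78 arrays), B2m had correlations of 0.847 with the microglia list, 0.818 with the meninges list, 0.792 with the endothelium list, 0.791 with the choroid plexus list and 0.282 with the lymphocyte list. H2-D1 had 0.334 with the microglia list. The SD of B2m was 0.65 in Lis1 ko/+, 0.68 in Lis1 ko/cko and 0.42 in mixed A at E14, against a median of 0.11 over the groups of that age. The low arrays thus weigh heavily in the B2m correlations, and no value without them is given. In brain RNA, fewer cells of a type and less RNA per cell cannot be told apart, and the part of these cells in the B2m values was not tested.

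**Figure D3:**
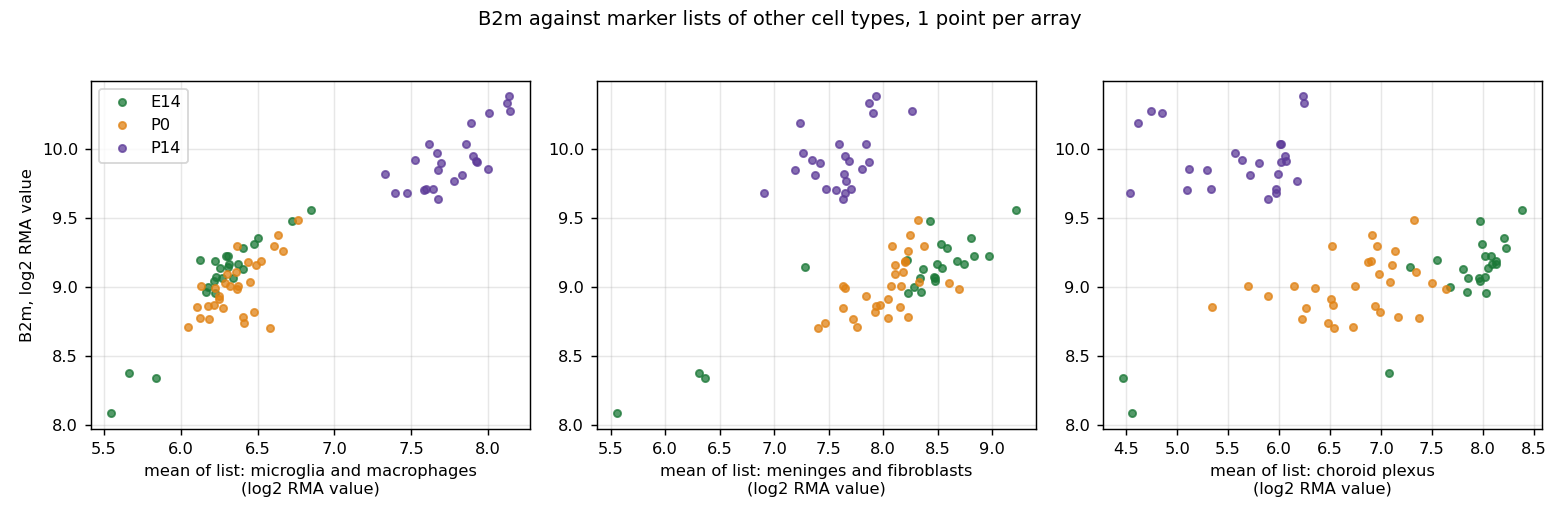
B2m log2 RMA value of each array (vertical) against the mean log2 RMA value of the microglia, meninges and choroid plexus marker lists (horizontal), coloured by age. The 3 arrays with B2m at 8.08, 8.34 and 8.38 are the lowest in the microglia and meninges lists, and the arrays of P14 are the highest in B2m and in the microglia list.

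Tapbp, which encodes tapasin, varied most after birth. Its group means spanned 0.29 units at E14, 0.75 at P0 and 1.02 at P14. At E14 the Tapbp means of the mutants lay between 6.88 and 7.07, against 6.95 ± 0.22 in mixed A brains and 6.77 ± 0.09 in mixed B brains, and no group stood apart. At P0 the arrays read by 1421812_at held 6.71, 6.73 and 6.79 in Ndel1 ko/cko and 7.10, 6.96 and 6.88 in Ndel1 ko/+, against 7.36, 7.42 and 7.46 in mixed A brains and 6.95, 6.88 and 7.17 in mixed B. Ndel1 ko/cko lay below all arrays of both wild types, and Ndel1 ko/+ overlapped mixed B. Lis1 ko/+ held 7.56, 7.37 and 7.52 and lay with mixed A and above mixed B. At P14 the arrays held 8.06, 8.16 and 7.92 in Lis1 ko/cko, 7.63, 7.81 and 7.71 in Lis1 ko/+, 7.13, 6.83 and 7.12 in Ndel1 ko/+ brains and 7.12, 7.24 and 6.90 in Ndel1 ko/cko, against 7.98, 7.95 and 7.81 in mixed A brains and 7.23, 7.20 and 7.20 in mixed B. The Lis1 groups thus lay nearer mixed A and the Ndel1 groups nearer mixed B, and Ndel1 ko/+ lay below all arrays of both wild types. Ndel1 ko/+ labelled mix, with 7.76, 7.82 and 7.65, lay nearer mixed A. The second Tapbp set, 1450378_at, averaged 5.94 over all arrays. It held 6.98, 6.97 and 6.57 in Lis1 ko/cko at P14, against 6.16, 6.39 and 6.21 in mixed A and 5.74, 5.75 and 5.56 in mixed B, and the ranges did not overlap. In the inbred background at P0 Tapbp (1421812_at) averaged 7.31 ± 0.15 in Ndel1 ko/+ brains and 7.34 ± 0.24 in 14-3-3 ko/ko, against 7.35 ± 0.13 in the wild type.

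**Figure D4:**
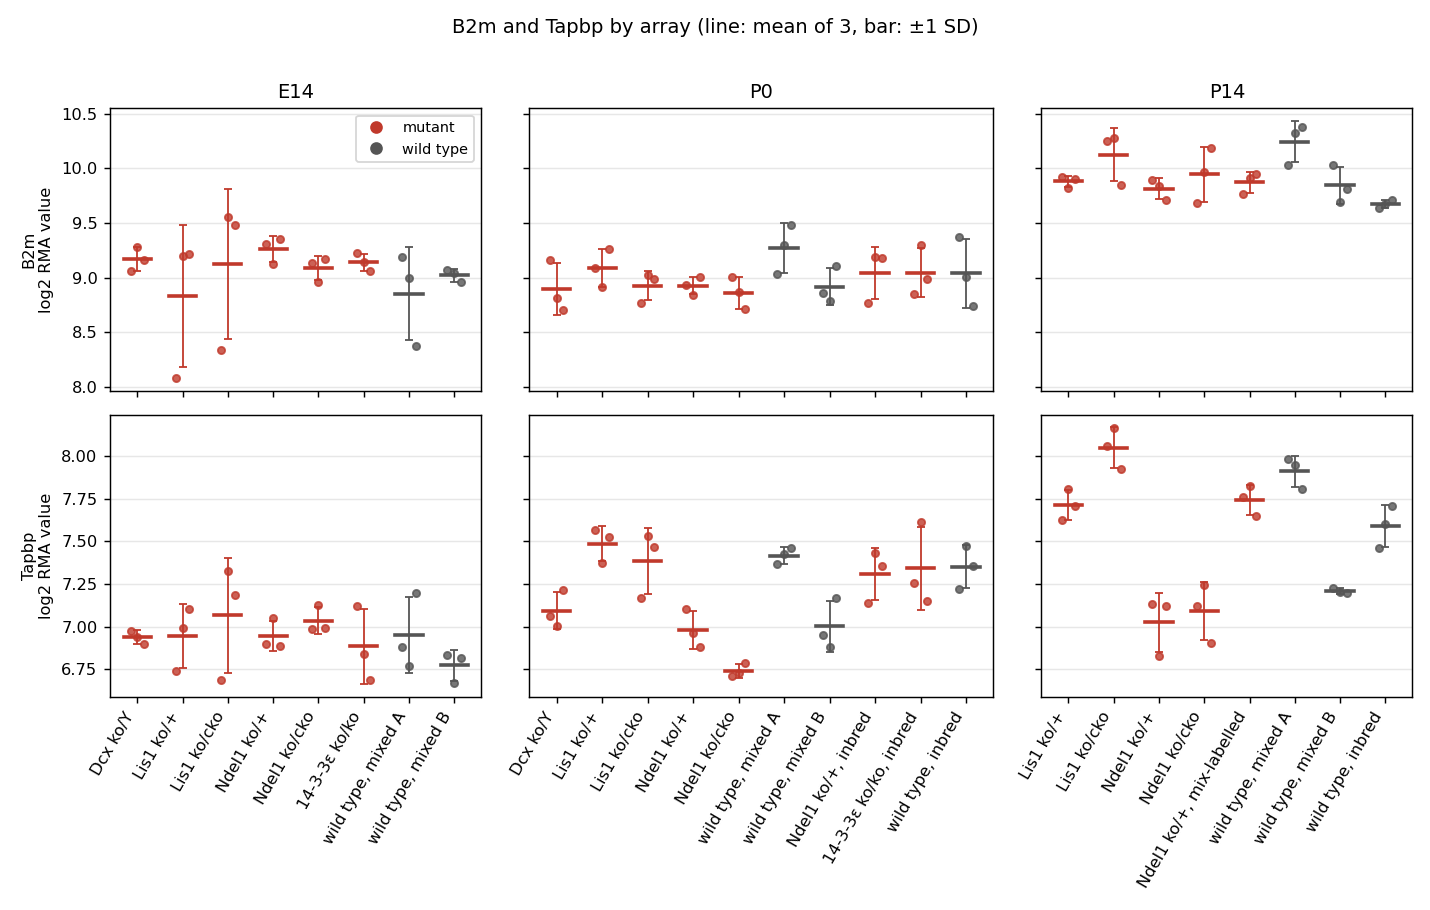
Log2 RMA values of B2m and Tapbp in each array, by group and age, with mutants and wild types in 2 colours, a line for the mean of 3 arrays and a bar for 1 SD. At P14 the Tapbp values of mixed A (7.81 to 7.98) and mixed B (7.20 to 7.23) stand apart, and the mutant groups fall near one or the other.

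Between the mixed wild types, Tapbp was higher in mixed A at P0 by 0.41 ± 0.12 log2 units (SE, limma adjusted p = 0.0106) and at P14 by 0.70 ± 0.11 (adjusted p = 8.87e-06). At P0 the call was lost without replicate 2 of mixed B (adjusted p = 0.0547), and the second Tapbp probe set, 1450378_at, gave 0.06 ± 0.15 at P0 and 0.57 ± 0.14 (adjusted p = 0.00143) at P14. At P14 B2m was higher in mixed A by 0.40 ± 0.12 (adjusted p = 0.0066), and Psmb8 by 0.32 ± 0.12 (adjusted p = 0.0327). The Psmb8 call was lost without replicate 1 or 3 of mixed A (adjusted p = 0.0782 and 0.0905) and without replicate 1 or 3 of mixed B (0.092 and 0.0678). The mixed wild types differed widely in all genes: 28.7% of all genes tested were called at P0 and 52.7% at P14, so the calls of members stand against a high background. At E14 0.0681% were called and neither of the 2 members tested was, with Tapbp at 0.18 (adjusted p = 0.52) and no unadjusted p under 0.05. Of all genes tested, 2131 of 11780 were called higher in mixed A at P0 and 4605 of 12297 at P14. In the endothelium list 6 of 11 tested genes were higher in mixed A at P0 and 7 of 11 at P14. The microglia list had 5 of 15 higher and 2 lower at P14, near the share of all genes. The part of these cells in the differences of the members was not tested.

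No member outside the H2 genes was called in a mutant against both mixed wild types. At E14 the 12 tests (6 mutants, B2m and Tapbp) gave differences between −0.11 and 0.32 and no unadjusted p under 0.05. The share of all genes called was 0.0341% in Ndel1 ko/+, 0.0426% in Dcx ko/Y and 0.0% in each of Ndel1 ko/cko, Lis1 ko/+, Lis1 ko/cko and 14-3-3 ko/ko. At P0 1 of 10 tests had an unadjusted p under 0.05: Tapbp in Ndel1 ko/cko, at −0.47 ± 0.12 on average (−0.68 against mixed A and −0.26 against mixed B), with an adjusted p (limma) of 0.515. The share called at P0 was 0.0% in Lis1 ko/+, 0.331% in Lis1 ko/cko, 4.05% in Ndel1 ko/+, 0.849% in Ndel1 ko/cko and 0.0255% in Dcx ko/Y. At P14 the 20 tests (5 mutants, 4 members) gave differences between −0.53 and 0.49, and none had an unadjusted p under 0.05. The share called was 6.32% in Lis1 ko/cko, 0.0% in Lis1 ko/+, 0.114% in Ndel1 ko/+ labelled mix, 0.0% in Ndel1 ko/+ brains and 0.0895% in Ndel1 ko/cko.

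The choice of wild type decided single differences. In Lis1 ko/cko at P14 Tapbp was 0.14 above mixed A and 0.84 above mixed B, while in Ndel1 ko/+ it was 0.89 below mixed A (−0.89) and 0.18 below mixed B (−0.18). Against mixed A alone 4 member differences were called at P0: Tapbp in Ndel1 ko/cko, Ndel1 ko/+ (−0.43) and Dcx ko/Y (−0.32), and B2m in Ndel1 ko/cko (−0.41). In these fits 33.8%, 42.9% and 30% of all genes were called in Ndel1 ko/cko, Ndel1 ko/+ and Dcx ko/Y. Against mixed B alone 2 were called at P0, both of Tapbp, at 0.49 in Lis1 ko/+, where 20.7% of all genes were called, and 0.39 in its ko/cko counterpart, where 32.8% were. At P14 each wild type alone gave 4. Those against mixed A alone were B2m and Tapbp in Ndel1 ko/+ and Ndel1 ko/cko, where 52.3% and 52.8% of all genes were called. Those against mixed B alone were B2m and Tapbp in Lis1 ko/cko (59.7% of all genes called) and Tapbp in Lis1 ko/+ and in Ndel1 ko/+ labelled mix (52.6% in each). The members' calls against 1 wild type thus stand against a background of 20.7% to 59.7%. Against the other mixed wild type, fewer genes were called in each of these groups. At P0 the shares against mixed B were 3.72% (Ndel1 ko/cko), 9.47% (Ndel1 ko/+) and 0.034% (Dcx ko/Y). Against mixed A they were 0.0% (Lis1 ko/+) and 2.36% (Lis1 ko/cko). At P14 those against mixed B were 0.0% (Ndel1 ko/+) and 0.179% (Ndel1 ko/cko). Mixed A gave 13.9% (Lis1 ko/cko), 0.00813% (Lis1 ko/+) and 0.968% (Ndel1 ko/+ labelled mix). With every probe set in the fit, the second Tapbp set was called in Lis1 ko/cko at P14, at 0.87 ± 0.14 (adjusted p = 0.015, 0.59 against mixed A and 1.16 against mixed B), where 6.34% of all probe sets tested were called. There the microglia list had 2 of 15 tested genes called higher, and its part was not tested.

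In the inbred background at P0, B2m and Tapbp were not called in either mutant, with differences between −0.04 and 0.01 and no unadjusted p under 0.05 (limma). Of all genes, 0.255% were called in Ndel1 ko/+, whose Ndel1 was not low, and 0.0255% in 14-3-3 ko/ko. The inbred wild type was set against both mixed ones at P0, where 1.0% of all genes were called, and at P14, where 0.244% were. No member was called in these 6 tests, and none had an unadjusted p under 0.05.

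The steps of development were followed in the wild types, since the choice of members spoke of groups and not of age. H2-T23 has no probe set of its own and Tap1 lay below the filter, so 6 of the 8 members were tested. The values appear to have been normalised within each age, so a step is best read against the median gene, which moved by −0.19 between E14 and P0 and by 0.13 between P0 and P14 in the mixed backgrounds, and by 0.04 in the inbred one. A step in the mixed backgrounds was called where it passed in both. H2-D1 was higher at P0 than at E14 by 0.57 ± 0.17 (limma adjusted p = 0.0176) and H2-K1 by 0.57 ± 0.16 (adjusted p = 0.0118). Of all genes 14.8% were called higher in this step and 35.0% lower. The calls were narrow: that of H2-D1 was lost without replicate 1 of mixed B at E14 (adjusted p = 0.0537) or at P0 (0.0509), and that of H2-K1 without replicate 3 of mixed B at E14 (0.0654) or replicate 1 at P0 (0.0718). The second and further sets of H2-D1 gave 0.68 (1451784_x_at, adjusted p = 0.00611) and 0.94 (1426324_at, adjusted p = 0.000123), and the second set of H2-K1 0.34 (adjusted p = 0.225). B2m differed by 0.15 on average, with 0.42 in mixed A brains and −0.11 in mixed B, and Tapbp by 0.35 (adjusted p = 0.0911).

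From P0 to P14 B2m rose, and so did Psmb8, which reached the filter through P14 alone, while the classical heavy chains did not pass the test in the mixed backgrounds. B2m held 10.03, 10.33 and 10.38 in mixed A brains and 10.03, 9.70 and 9.81 in mixed B brains at P14. In the mixed backgrounds B2m rose by 0.95 ± 0.17 (adjusted p = 4.72e-05) and in the inbred one by 0.63 ± 0.17 (adjusted p = 0.00184), and its second probe set, 1449289_a_at, gave 1.22 and 1.09. In the mixed backgrounds 34.3% of all genes were called higher and 22.1% lower, and in the inbred one 38.0% higher and 33.8% lower. The second H2-D1 set, 1451784_x_at, gave 0.10 in the mixed and 0.56 in the inbred background. H2-D1 moved by 0.06 and H2-K1 by −0.03 in the mixed backgrounds (adjusted p = 1.0 each). In the inbred one H2-D1 moved by 0.40 ± 0.17 (adjusted p = 0.0392), a call lost without replicate 1 or 3 at P0 (0.15 and 0.0732) or replicate 2 or 3 at P14 (0.186 and 0.111), and H2-K1 by 0.24 (adjusted p = 0.197). The second H2-K1 set, 1425336_x_at, disagreed: it gave 0.69 (adjusted p = 0.00388) in the mixed backgrounds and 0.88 (adjusted p = 4.17e-05) in the inbred one.

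Psmb8 encodes a catalytic subunit that replaces its constitutive counterpart Psmb5 in the immunoproteasome, and Psmb9 one that replaces Psmb6. Psmb8 averaged 4.69, 5.06 and 6.10 in mixed A brains and 4.79, 4.85 and 5.78 in mixed B brains at E14, P0 and P14. In the inbred wild type it averaged 5.82 at P14 and 5.06 at P0. It rose after birth by 0.98 ± 0.10 in the mixed backgrounds (adjusted p = 2.53e-08) and by 0.76 ± 0.10 in the inbred one (adjusted p = 4.07e-07). Psmb9 differed by 0.36 in the mixed backgrounds (adjusted p = 0.209) and rose by 0.48 ± 0.12 in the inbred one (adjusted p = 0.00143). Both genes passed the filter on dim genes through P14 only, where they were highest, so that their being tested is not independent of the step. Tap1, a chain of the peptide transporter, stayed below the filter, with means between 4.27 and 5.04 in the wild-type groups, and was not tested in this fit.

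**Figure D5:**
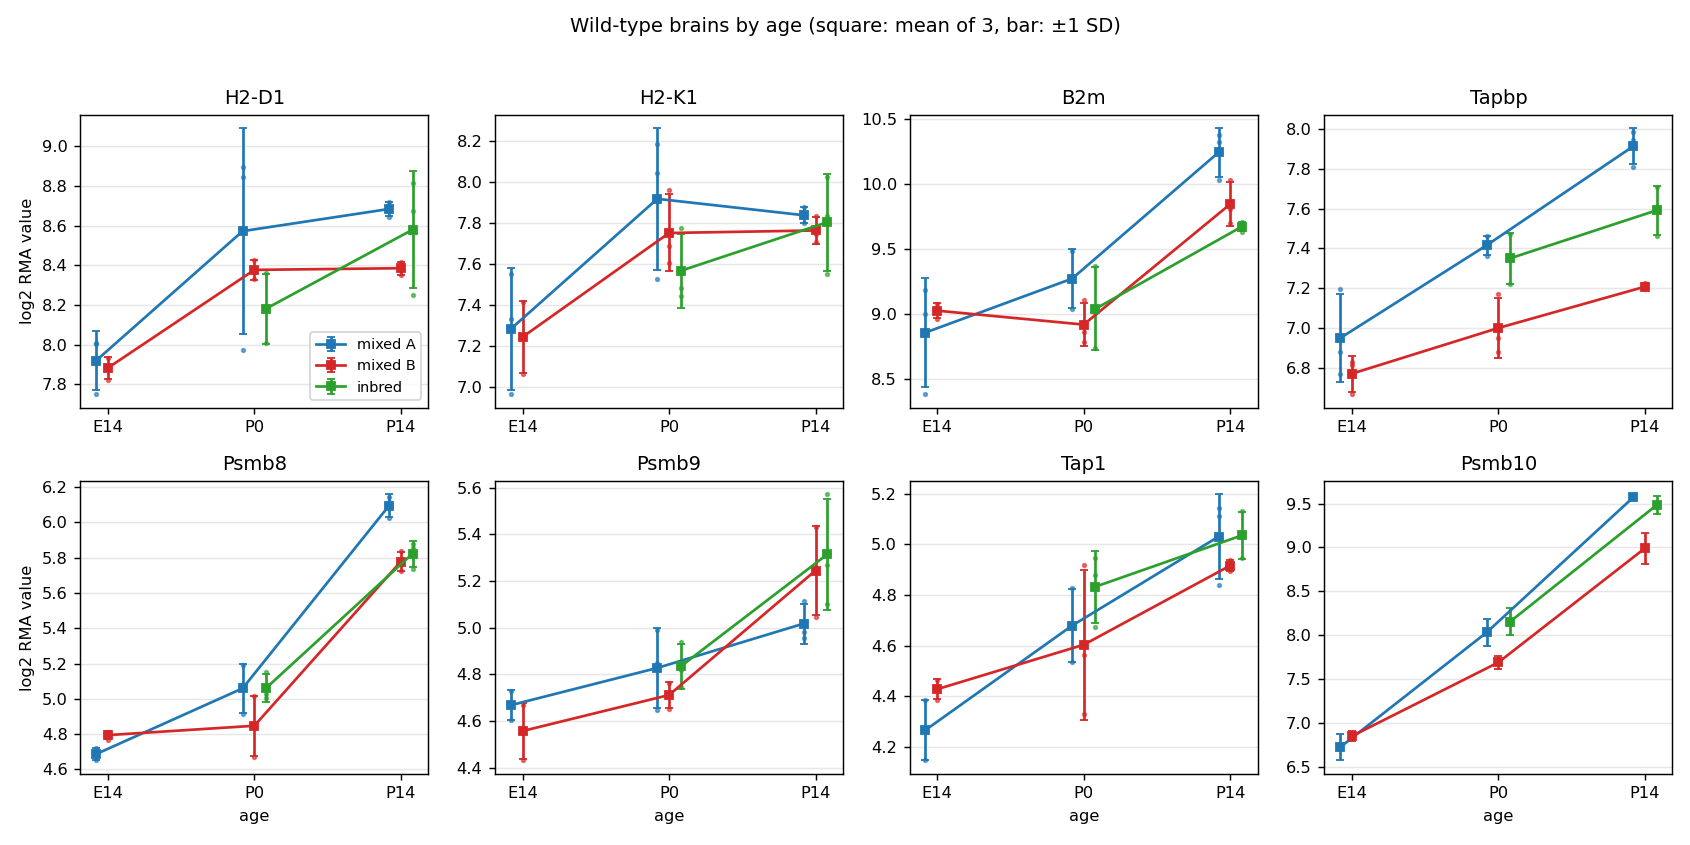
Log2 RMA values (vertical) of the 7 members with a probe set of their own and of Psmb10 in the wild-type arrays by age (horizontal), in mixed A, mixed B and the inbred background, with a point per array, a square for the mean of 3 arrays, a bar for 1 SD and lines joining the ages. B2m and Psmb8 are highest at P14 in each background, and H2-D1 and H2-K1 are lowest at E14 in both mixed backgrounds.

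The means of these dim members in the mutant groups covered narrow ranges at each age. Psmb8 means lay between 4.65 and 4.88 in mutants at E14, between 4.94 and 5.11 at P0 and between 5.79 and 5.89 at P14. Psmb9 means lay between 4.54 and 4.78, between 4.68 and 4.98, and between 5.02 and 5.20 at the same ages. Tap1 means lay between 4.31 and 4.43, between 4.60 and 5.03, and between 5.02 and 5.14. The highest Tap1 group at P0 was 14-3-3 ko/ko in the inbred background, with 4.76, 5.24 and 5.10, against 4.67, 4.88 and 4.95 in its wild type, and the ranges overlapped. No mutant group of Psmb8, Psmb9 or Tap1 lay above or below all arrays of both mixed wild types at E14, P0 or P14. Without the filter Tap1 was higher at P14 than at P0 by 0.33 in the mixed backgrounds (adjusted p = 0.0432), and by 0.20 in the inbred one (adjusted p = 0.161).

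Whether the step after birth differed between backgrounds was tested directly for the 4 members outside the H2 genes. None was called in the 3 comparisons, the lowest adjusted p was 0.205, and none had an unadjusted p under 0.05. Of all genes 4.26% were called for inbred minus mixed A, 10.4% for inbred minus mixed B and 11.6% for mixed A minus mixed B.

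Other genes of the pathway and of the cells that use it were read from lists. A gene was tested if its highest group mean passed the filter, so counts over dim genes are not independent of the step. Among all genes 14.8% were called higher and 35.0% lower from E14 to P0. From P0 to P14 the shares were 34.3% and 22.1% in the mixed backgrounds. Of 18 tested proteasome genes 1 rose and 13 fell from E14 to P0, with a median of −0.30 against −0.19 for all genes, and 2 rose and 7 fell from P0 to P14 in the mixed backgrounds (median 0.01 against 0.13). The gene that rose in both steps was Psmb10, another subunit exchanged in the immunoproteasome, by 1.07 ± 0.10 (adjusted p = 5.28e-07) and 1.42 ± 0.10 (adjusted p = 2.39e-10). Psmb6 fell in both steps, by 0.55 and 0.52 on the log2 scale, and Psme1, a subunit of the proteasome activator PA28, fell by 1.03 after birth. In level, Psmb10 averaged 9.57 in mixed A brains and 8.99 in mixed B brains at P14.

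Of 7 tested genes of the list of other class I and peptide loading genes, 3 fell from E14 to P0 (median −0.28 against −0.19), the chaperones Hspa5 (−0.76), Calr (−0.41) and Pdia3 (−0.28). After birth 2 rose and 1 fell in the mixed backgrounds (median 0.24 against 0.13). H2-M3, a nonclassical heavy chain that binds formylated peptides, rose by 1.15 ± 0.16 (adjusted p = 8.94e-06), and Calr, whose product calreticulin holds class I molecules during loading, by 0.76 ± 0.08 (adjusted p = 3.58e-08). Tap2, the partner of Tap1, differed by 0.24 (adjusted p = 0.0733).

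Of 20 tested regulators and interferon response genes 7 rose and 1 fell from E14 to P0 (median 0.26 against −0.19), and 8 rose and 1 fell from P0 to P14 in the mixed backgrounds (median 0.25 against 0.13). After birth Irgm1, an interferon-induced GTPase, rose by 1.83 ± 0.16 (adjusted p = 5.62e-09), Irf2, a factor that binds interferon response motifs, by 1.66 ± 0.09 (adjusted p = 6.3e-13), and Gbp3 by 1.11 ± 0.11 (adjusted p = 4.46e-08). Ifnar2, a chain of the type I interferon receptor, fell by 0.42 (adjusted p = 0.0165). In the inbred background 9 rose and 5 fell (median −0.01 against 0.04), beside 38.0% higher and 33.8% lower among all genes.

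Class II molecules present peptides to helper T cells, in the brain mainly on microglia and other phagocytes. Of 7 measured class II genes 4 were tested and passed after birth in the mixed backgrounds, but H2-Aa and H2-Ab1 reached the filter through P14 alone, so no count over them is read. H2-DMa, which helps load class II molecules, reached it from P0 on and rose by 0.86 ± 0.14 (adjusted p = 0.00618). H2-Aa rose by 1.68 ± 0.15 (adjusted p = 5.79e-09) and Cd74, the invariant chain, by 1.04 ± 0.16 (adjusted p = 3.43e-05). The microglia list moved with them: 14 of 15 tested genes rose and none fell (median 1.502 against 0.13). Its mean was 6.02, 6.61 and 7.96 in mixed A brains and 6.22, 6.31 and 7.76 in mixed B brains at E14, P0 and P14, and 7.60 at P14 and 6.47 at P0 in the inbred wild type. These values stand beside the rise of B2m and Psmb8, and the part of microglia in it was not tested.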

How the data were processed

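Brain RNA of 78 mouse samples was measured on Affymetrix arrays. Per the labels, Trizol was used to extract total RNA and the target carried biotin, and the samples of a group are biological replicates. Per the submitters' processing notes the deposited log2 values are from RMA, a tool given there without a version. Sorted columns differed by 0.0342 (root mean square) within an age and 0.1565 between ages, as after normalisation within each age.

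Each gene was represented by its single-gene probe set with the highest mean, and tested if any group of the fit averaged at least 5.253, the median value: 12865 genes in wild types, 11744 at E14, 11780 at P0 and 12297 at P14. Probe sets were named from GEO's platform annotation. Linear models with 1 mean per group were fitted in limma 3.58.1 (R 4.3.3) with a variance trend, separately for each age and for the 24 wild-type arrays, with Benjamini-Hochberg adjustment over all genes tested and calls at adjusted p under 0.05. Against both mixed wild types the larger p was used if the signs were equal and 1 otherwise, with the mean difference and the larger SE. Named are the members, the 3 genes of most like pattern, and called genes of each list. The members and lists were chosen with earlier results of these data known.

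In simulated data with 200 changed genes, 62.0% of 1.5-fold and 95.0% of 2-fold changes were recovered in the mixed P0 to P14 step. In Lis1 ko/cko at P14 the shares were 63.0% and 96.0%. Recovery where mixed A and mixed B differ from each other was not tested. The shares can therefore be too high for calls that had to pass for both. Alternatives were no filter, a filter at 7.627, every probe set, no trend, all arrays in 1 fit, quantile normalisation, each mixed wild type alone, the replicate number as a block, arrays left out in turn or for a low score of hindbrain genes, and, chosen after seeing the data, a step averaged over both mixed backgrounds and leaving out the 2 arrays that keep Ywhae.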

Additional observations from a re-analysis of the deposited data

How the results depend on the processing

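No called difference turned its sign under the alternatives run, but some that were not called did. Under the filter at 7.627, Psmb8 and Psmb9 in all fits and Tapbp in the P0 fit were no longer tested. The counts that drop under that filter lose these members for that reason. The cause of each other change below was not tested. From E14 to P0 B2m (0.15) was −0.11 in mixed B alone and −0.0107 without the arrays of low hindbrain score. From P0 to P14 H2-D1 (0.06) was −0.0172 after quantile normalisation and −0.0897 to 0.14 with single arrays left out, and H2-K1 (−0.03) was 0.0124 in mixed B alone and −0.13 to 0.0324 with single arrays left out. B2m in mixed A against mixed B at E14 (−0.17) was 0.16 without the arrays of low hindbrain score and −0.33 to 0.0694 with single arrays left out, the last without replicate 3 of mixed A. In the inbred wild type against both mixed ones at P0, B2m (−0.06) was 0.12 against mixed B alone and −0.22 to 0.0956 with single arrays left out, and Tapbp (0.14) was −0.0656 against mixed A alone. At P14 Tapbp (0.03) was −0.32 against mixed A alone and −0.028 to 0.0958 with single arrays left out, and Psmb8 (−0.11) was 0.0448 against mixed B alone. From E14 to P0, 2 members were called, where 49.8% of all genes were. In mixed A alone 5 were (68.5% of all genes called), and with the step averaged over both backgrounds 4 (75.1%). The count was 1 without the E14 arrays of low hindbrain score (44.6%), and 0 to 2 when single arrays were left out. From P0 to P14 the mixed backgrounds gave 2 calls (56.4% of all genes called), against 4 for the averaged step (78.1%). Under the filter at 7.627 they gave 1 (60.3%), and with single arrays left out 2 to 3. The inbred wild type gave 4 (71.7%), against 2 under that filter (75.3%). With single arrays left out it gave 2 to 5, the 2 being without replicate 2 at P14. Psmb8 and Psmb9 were tested in these steps through P14 alone, so their calls are not independent of the step. Between the mixed wild types at P0 1 call became 0 under the filter at 7.627, where Tapbp was not tested. With single arrays left out it became 0 to 2, and at P14 3 became 2 to 3. Inbred against both mixed wild types gave 0, against mixed B alone 1 at P0 (45.4%), and against either alone 1 at P14 (4.2% for mixed A and 48.6% for mixed B). Mutants gave 0 calls at P0, 4 against mixed A alone and 2 against mixed B alone, and at P14 0, 4 and 4, and 1 with every probe set. Psmb8 between the mixed wild types at P14 had an adjusted p of 0.105 after quantile normalisation, and B2m there 0.0991 with all arrays in 1 fit. With the replicate number as a block the counts stayed at 2, 2 and 4 for the 3 steps and 0 for the mutants. The numbers do not pair the samples: correlations of same-numbered deviations ranged from −0.807 to 0.744 at E14, and 9 of 24 arrays there, 8 of 30 at P0 and 12 of 24 at P14 correlated best with their own number. Dim probe sets limit what can be said of Tap1, Psmb9 and H2-T23.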
